A study of Rattus norvegicus with 30 samples.

Results

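The endophilins are a family of membrane-bending proteins encoded in the rat by 5 genes. Sh3gl2, Sh3gl1 and Sh3gl3 encode endophilins of class A, and Sh3glb1 and Sh3glb2 encode those of class B. These 5 genes were taken by their symbols from the 17455 rows of a table of RNA counts from rat dorsal hippocampus, and all 5 passed the filter on low counts, as did 12547 genes in all. Sh3glb2 was picked because earlier results from the same counts showed a large difference between genotypes. Its genotype values are therefore given as a description with no test, and the other 4 genes show whether the family moved with it.

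Polyadenylated RNA was counted in 30 libraries from snap-frozen dorsal hippocampus of rats labelled alzheimer or wildtype, fed standard chow or a western diet. The alzheimer animals are TgF344-AD rats, a transgenic line of the Fischer strain in which the mouse prion promoter drives a mutant human APP transgene, and the wildtype animals do not carry it. There were 4 libraries in each of male_wildtype_chow, male_wildtype_western, male_alzheimer_chow, male_alzheimer_western, female_wildtype_chow and female_alzheimer_chow, and 3 in each of female_wildtype_western and female_alzheimer_western. The labels name 2 cohorts, of 14 and 16 libraries, with both genotypes equally represented in each. They give no age and do not state that every library is from a separate animal, so p-values measure the spread between these libraries. Totals per library lay between 13.9 and 31.4 M counts (M stands for mega) and had 17.8 M as their median. Levels are counts per mega of counts (CPM) after scaling of library sizes by the trimmed mean of M values (TMM), and errors of means are SD. A fold change is the log2 of alzheimer over wildtype from a fit over all genes, given ± its standard error. A gene is called where the adjusted p of edgeR's quasi-likelihood test is under 0.05. Counts per gene are not corrected for gene length, so levels are compared between libraries and not between genes.

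Every endophilin carries an N-terminal BAR domain, which forms a crescent-shaped dimer that senses and bends membranes, and a C-terminal SH3 domain that recruits partners. Class A proteins act in clathrin-mediated endocytosis, where they bind dynamin and synaptojanin at the neck of the budding vesicle and help to shed its clathrin coat. At synapses this step returns synaptic vesicle membrane after release. Class B proteins act on internal membranes. Endophilin B1, also called Bif-1, takes part in autophagosome formation and in the shaping of mitochondrial membranes, and endophilin B2 can form dimers with it.

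The start-site windows of 3 of the genes are shown first: that of Sh3glb2, whose level set the genotypes apart, that of Sh3glb1, the other class B gene, and that of Sh3gl2, the class A gene that was called for genotype. Each runs from 250 bases before to 50 bases after the gene's start in RefSeq's annotation of the rat assembly GRCr8, 5′ to 3′ on the gene's strand. Sh3glb2 lies at chr3:34029517-34029816 on the minus strand, Sh3glb1 at chr2:236445091-236445390 on the minus strand and Sh3gl2 at chr5:104699020-104699319 on the plus strand. Capitals mark GC boxes (GGGCGG on either strand), the letters bound by Sp1-type factors, and cAMP response elements (TGACGTCA).
Sh3glb2: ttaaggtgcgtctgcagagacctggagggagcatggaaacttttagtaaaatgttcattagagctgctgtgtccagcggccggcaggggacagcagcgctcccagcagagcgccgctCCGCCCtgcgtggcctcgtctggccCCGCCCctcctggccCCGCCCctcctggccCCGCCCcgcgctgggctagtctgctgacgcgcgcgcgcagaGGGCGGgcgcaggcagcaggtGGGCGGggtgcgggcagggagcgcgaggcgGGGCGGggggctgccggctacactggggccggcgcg
Sh3glb1: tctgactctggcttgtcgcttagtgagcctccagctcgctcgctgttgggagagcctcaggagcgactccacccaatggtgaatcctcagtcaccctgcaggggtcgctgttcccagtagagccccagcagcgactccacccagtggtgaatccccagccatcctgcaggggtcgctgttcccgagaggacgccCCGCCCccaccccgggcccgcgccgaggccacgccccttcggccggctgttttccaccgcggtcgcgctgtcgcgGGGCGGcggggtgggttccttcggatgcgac
Sh3gl2: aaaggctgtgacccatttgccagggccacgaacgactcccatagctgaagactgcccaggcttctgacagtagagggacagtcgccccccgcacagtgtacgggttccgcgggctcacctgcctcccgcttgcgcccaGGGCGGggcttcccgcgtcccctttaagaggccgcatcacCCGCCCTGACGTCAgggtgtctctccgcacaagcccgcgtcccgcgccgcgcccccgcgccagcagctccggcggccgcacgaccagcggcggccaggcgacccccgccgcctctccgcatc

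The window of Sh3glb2 was rich in G and C, at 73.0%, against a median of 51.7% over 33469 windows of the same length. This was shared with Sh3gl2 (71.3%), Sh3glb1 (68.7%), Sh3gl1 (66.0%) and 1 window of Sh3gl3 (63.3%). The other Sh3gl3 window lay below the median. The Sh3glb2 window held 7 GC boxes, the most of the family, whereas Sh3glb1, Sh3gl2 and Sh3gl1 held 2 each, and the 2 windows listed for Sh3gl3 held 0 and 1. A GC box was present in 33.1% of all windows, and 0.520% of windows held as many as Sh3glb2. Sh3gl2 was the only member with a full cAMP response element, which 1.83% of windows hold, and this element directly follows a GC box. No window of any member held a TATA box (searched as TATAAA on both strands), which 14.2% of all windows hold. An E-box, searched as CACGTG, was not found in any member either, and 6.42% of all windows hold one. These are matches of letters, and binding was not measured.

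Sh3glb2, the gene of endophilin B2, separated the genotypes completely. In the wildtype males on chow its level was 118.5, 104.2, 122.9 and 125.5 CPM, and in those on the western diet 111.3, 118.2, 124.0 and 127.0 CPM. The wildtype females had 126.2, 114.1, 117.4 and 119.5 CPM on chow and 108.9, 107.0 and 120.1 CPM on the western diet. All 15 wildtype libraries thus lay in a narrow band. The alzheimer males had 303.3, 340.2, 306.3 and 318.2 CPM on chow and 295.3, 313.1, 321.4 and 320.1 CPM on the western diet. In the alzheimer females it was 305.4, 313.1, 318.9 and 319.0 CPM on chow and 312.3, 310.7 and 314.9 CPM on the western diet. The ranges did not overlap: the lowest alzheimer library stood 2.33-fold above the highest wildtype library.

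The mean level of Sh3glb2 was 118 ± 7.19 CPM in wildtype and 314 ± 10.2 CPM in alzheimer (n = 15 each), a gap of 196 CPM. The fitted log2 fold change was 1.42 ± 0.025, or 2.68-fold. Whether this reflects more RNA per cell or a different share of the cells that express the gene cannot be told apart in bulk tissue. The alzheimer libraries were also the more uniform in relative terms, with a coefficient of variation of 3.25% against 6.11% in wildtype. Counts behind these levels ran from 1708 to 9663 per library.

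**Figure D1:**
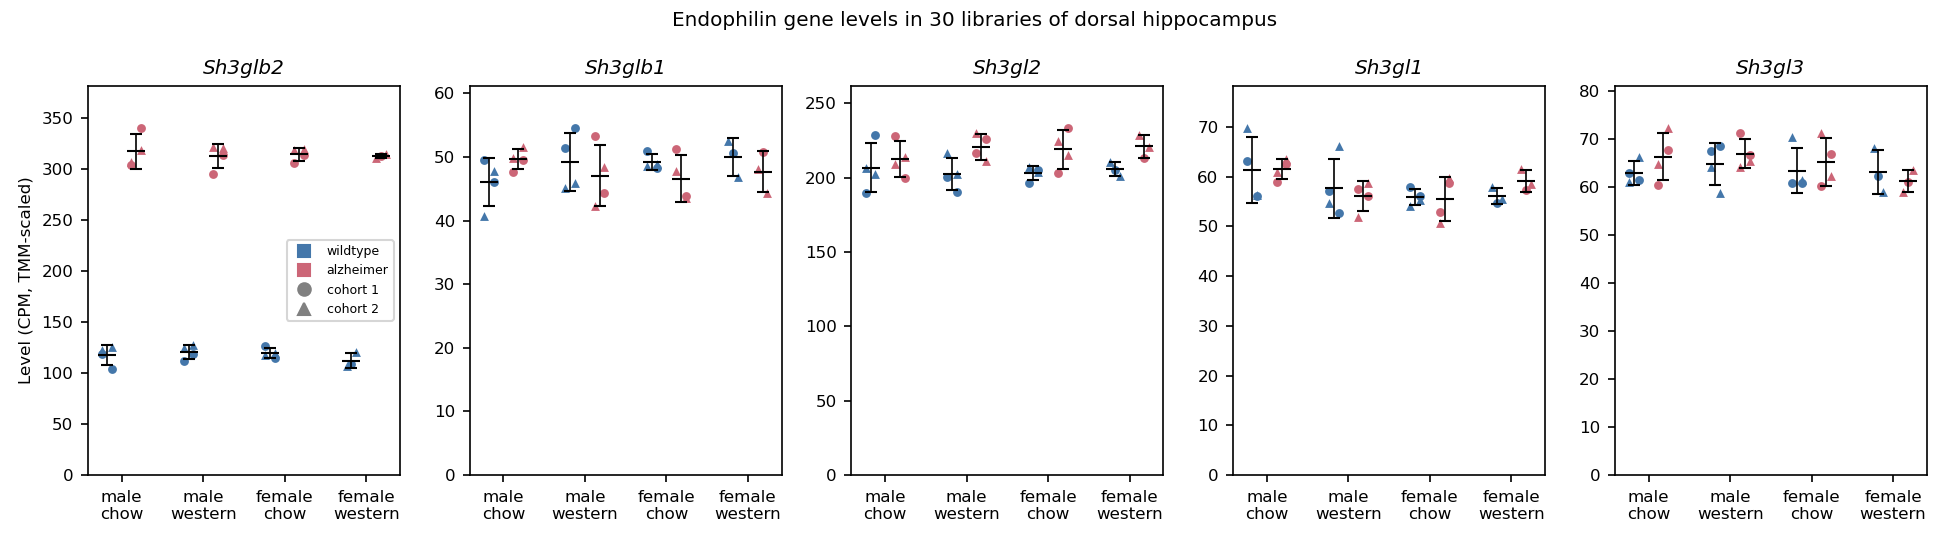
Level of each endophilin gene (y axis, CPM after TMM scaling, each panel with its own scale from 0) in every library, by sex and diet (x axis), with wildtype in blue, alzheimer in red, and circles and triangles for cohorts 1 and 2. Bars are the mean ± SD of 3 or 4 libraries. The alzheimer libraries of Sh3glb2 lie between 295 and 340 CPM and its wildtype libraries between 104 and 127 CPM, while the genotypes overlap in the other 4 panels.

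Ordered by mean, the 4 alzheimer groups came first and the 4 wildtype groups last. The alzheimer groups lay close together, at 317 ± 16.8 CPM (male_alzheimer_chow), 314 ± 6.42 CPM (female_alzheimer_chow), 313 ± 2.14 CPM (female_alzheimer_western) and 312 ± 12.03 CPM (male_alzheimer_western). A gap of 192 CPM followed. The wildtype groups stood at 120 ± 6.91 CPM (male_wildtype_western), 119 ± 5.10 CPM (female_wildtype_chow), 118 ± 9.51 CPM (male_wildtype_chow) and 112 ± 7.06 CPM (female_wildtype_western). Every pair of neighbours in this order other than the pair across the gap had overlapping ranges.

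By stratum, the log2 fold change of Sh3glb2 was 1.43 ± 0.048 in males on chow, 1.38 ± 0.048 in males on the western diet, 1.40 ± 0.048 in females on chow and 1.48 ± 0.055 in females on the western diet. The separation was present in each cohort. In cohort 1 the means were 114 ± 7.24 and 312 ± 14.1 CPM (n = 7 wildtype and 7 alzheimer), and in cohort 2 they were 120 ± 6.31 and 316 ± 5.23 CPM (n = 8 and 8).

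Among the 1007 genes called for genotype, 8.03% of those tested, the median size of the log2 fold change was 0.12. Of these, 5 genes had a larger fold change than Sh3glb2, and each of them had a lower average level, at most 5.06 on the log2 CPM scale against 7.76 for Sh3glb2. Of the 220 called genes with an average level at least that of Sh3glb2, Sh3glb2 was the only one that differed by 1 log2 unit or more. App came next to this mark at 0.98. These values come from the contrast for which Sh3glb2 was picked and describe its place in it.

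The composition of the family's counts shifted with Sh3glb2. It made up 23.9% ± 1.38 of the summed endophilin counts in wildtype libraries (range 20.99% to 25.6%) and 44.7% ± 1.11 in alzheimer libraries (42.6% to 47.3%). Sh3gl2 held the largest share in wildtype, at 41.5% ± 1.70, and 31.0% ± 1.35 in alzheimer. Sh3gl3 went from 12.9% to 9.27%, Sh3gl1 from 11.8% to 8.24% and Sh3glb1 from 9.87% to 6.79%. The shares of these 4 genes were lower within a larger total, and their own summed level was 374 ± 8.62 CPM in wildtype and 389 ± 9.67 CPM in alzheimer. With Sh3glb2 the family summed to 492 ± 7.62 and 703 ± 12.4 CPM. These are shares of counts and not of molecules, because longer transcripts give more fragments.

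**Figure D2:**
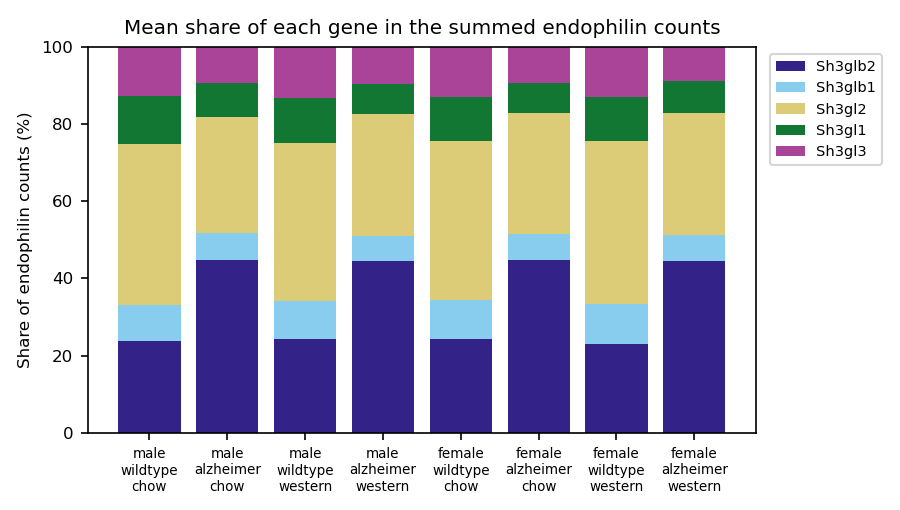
Mean share of each gene in the summed endophilin counts (y axis, percent) for the 8 groups (x axis), stacked to 100%. The Sh3glb2 segment is 23.9% of the counts on average in wildtype libraries and 44.7% in alzheimer libraries, on both diets and in both sexes.

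Sh3gl2 encodes endophilin A1, the main presynaptic endophilin of the brain. In wildtype males its level was 189.5, 228.5, 206.8 and 202.2 CPM on chow and 200.7, 190.2, 216.7 and 202.2 CPM on the western diet. Wildtype females had 196.5, 205.2, 207.0 and 203.7 CPM on chow and 205.3, 210.5 and 201.0 CPM on the western diet. The wildtype libraries therefore lay close together, with 1 male on chow (replicate 7) at the top. In alzheimer males Sh3gl2 stood at 228.2, 199.4, 209.1 and 213.9 CPM on chow and at 216.5, 225.7, 230.3 and 211.0 CPM on the western diet. Alzheimer females had 203.3, 233.6, 224.5 and 215.0 CPM on chow and 213.3, 229.0 and 220.9 CPM on the western diet. The genotypes overlapped, but 14 of 15 alzheimer libraries lay above the wildtype mean of the same sex and diet.

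Of the 4 members tested for genotype, Sh3gl2 alone was called, beside 8.03% of all genes, and DESeq2 and limma-voom also called 1. It rose from 204 ± 9.66 to 218 ± 10.2 CPM (n = 15 each), a log2 fold change of 0.095 ± 0.026 with an adjusted p of 0.0183 in edgeR's quasi-likelihood test. In fold terms this is 1.07, with a 95% interval of 1.03 to 1.11. The call was kept without any single library, at adjusted p from 0.00255 to 0.0491. Adding 2 surrogate variables ended it (0.076, adjusted p = 0.0629). It was also absent from cohort 1 alone (0.094, adjusted p = 0.533) and from cohort 2 alone (0.086, adjusted p = 0.0841), where the estimates stayed close to that of all libraries.

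Within strata the Sh3gl2 estimates were 0.041 ± 0.050 in males on chow, 0.13 ± 0.050 in males on the western diet, 0.11 ± 0.050 in females on chow and 0.10 ± 0.058 in females on the western diet. None of the 4 tested members was called in any stratum by edgeR, DESeq2 or limma-voom. The share of all genes called there was 0.239%, 0.829%, 0.367% and 0.263% in the same order. At an unadjusted p under 0.05 the count was 1 member in males on the western diet and 1 in females on chow, Sh3gl2 in both, and 0 in the other strata.

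Sh3glb1, the gene of endophilin B1, did not follow its class B partner. Its level ranged from 40.7 to 54.6 CPM in wildtype and from 42.3 to 53.2 CPM in alzheimer libraries, with means of 48.5 ± 3.41 and 47.7 ± 3.38 CPM. The log2 fold change was −0.025 ± 0.034 (edgeR adjusted p = 0.733), with a 95% interval from −0.095 to 0.044, so a change of Sh3glb2's size lies far outside it. Only 7 of 15 alzheimer libraries were above the wildtype mean of their sex and diet.

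Sh3gl1 encodes endophilin A2, which is made in most tissues. It ranged from 52.7 to 69.9 CPM in wildtype and from 50.7 to 63.6 CPM in alzheimer, with means of 57.9 ± 4.78 and 58.0 ± 3.78 CPM. The difference was 0.0079 ± 0.034 on the log2 scale (edgeR adjusted p = 0.928, interval −0.061 to 0.077). In the GRCr8 annotation Sh3gl1 overlaps Mpnd, and since the strand setting of the counting is not given in the sources used here, reads of this pair might not be told apart.

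Sh3gl3 encodes endophilin A3, found mainly in brain and testis. It ranged from 58.8 to 70.4 CPM in wildtype and from 59.0 to 72.4 CPM in alzheimer, with means of 63.6 ± 3.70 and 65.2 ± 4.23 CPM. Its difference was 0.028 ± 0.032 (edgeR adjusted p = 0.671, interval −0.037 to 0.094). The intervals of these 3 genes thus include 0 and end at 0.094 or lower, while that of Sh3gl2 ran from 0.042 to 0.15, and differences between members were not tested. In the GRCr8 annotation Sh3gl3 overlaps 2 long non-coding RNAs and Sh3gl2 a pseudogene, and no gene overlaps Sh3glb2 or Sh3glb1.

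Diet did not move any of the 5 genes beyond the threshold. The diet contrast called 0 members by edgeR, DESeq2 and limma-voom, 0 had an unadjusted p under 0.05, and 0.00797% of all genes were called. Western minus chow was −0.027 ± 0.025 for Sh3glb2 (edgeR adjusted p = 0.957), with a 95% interval of −0.078 to 0.023. The other members lay between −0.034 for Sh3gl1 and 0.024 for Sh3glb1. For sex, 0 members were called by the same 3 tools and 0 had an unadjusted p under 0.05, beside 0.837% of all genes. Female minus male was −0.028 ± 0.025 for Sh3glb2 (edgeR adjusted p = 0.651) and ran from −0.062 for Sh3gl1 to 0.019 for Sh3glb1.

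**Figure D3:**
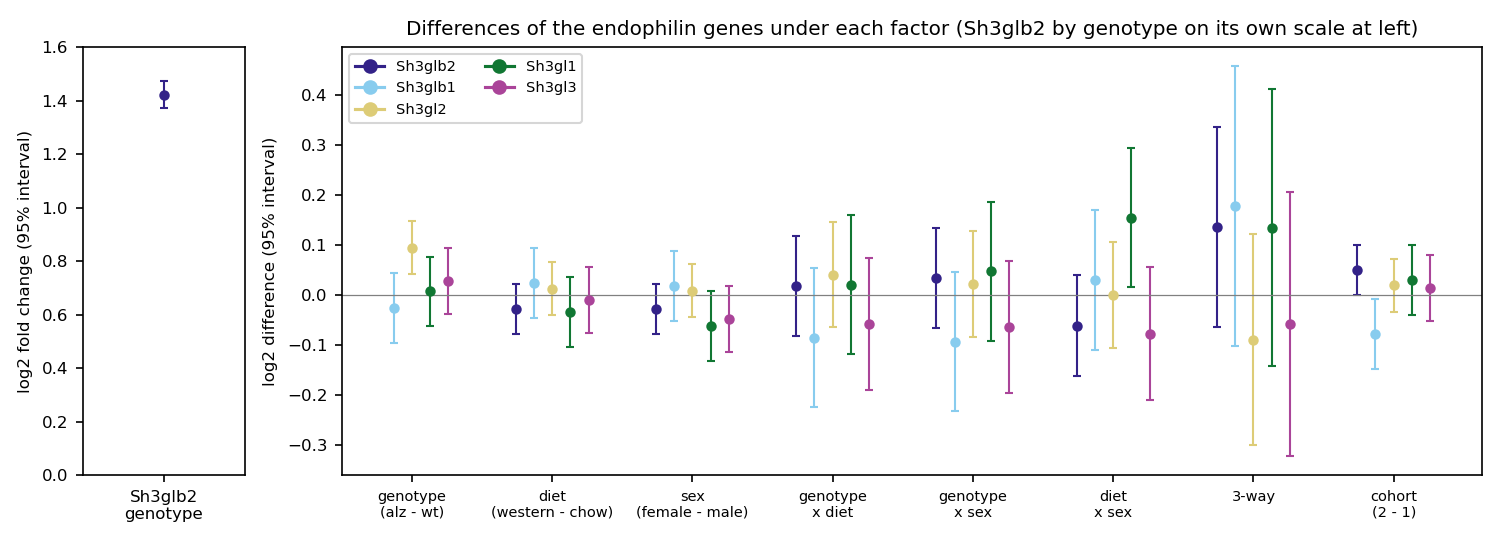
Log2 differences of the 5 endophilin genes with their 95% intervals (y axis) for genotype, diet, sex, the interactions and cohort (x axis), with the genotype value of Sh3glb2 in the left panel on its own scale. The genotype value of Sh3glb2 is 1.42, and the largest of the remaining genotype, diet, sex and cohort values is 0.095, for Sh3gl2 by genotype.

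The interactions asked whether diet or sex changed the genotype difference. For Sh3glb2 the genotype-by-diet term was 0.018 ± 0.049, the genotype-by-sex term 0.034 ± 0.049 and the 3-way term 0.14 ± 0.098. In these 3 contrasts 0 members were called by edgeR, DESeq2 and limma-voom, 0 had an unadjusted p under 0.05, and 0% of all genes were called by edgeR. The 95% interval of the genotype-by-diet term of Sh3glb2, −0.083 to 0.12, and that of its genotype-by-sex term, −0.066 to 0.13, are narrow beside the genotype difference of 1.42. The diet-by-sex contrast called 1.23% of all genes and 0 members with each of the 3 tools. Sh3gl1 was the 1 member with an unadjusted p under 0.05 there (0.15 ± 0.068, edgeR adjusted p = 0.281). In males its group means were 61.3 and 61.5 CPM on chow and 57.7 and 56.1 CPM on the western diet. In females they were 55.9 and 55.5 CPM on chow and 56.1 and 59.1 CPM on the western diet, each pair in the order wildtype and alzheimer.

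Between cohorts, 0 members were called by the 3 tools, beside 0.0877% of all genes, and 2 had an unadjusted p under 0.05. Cohort 2 minus cohort 1 was 0.051 ± 0.025 for Sh3glb2 (edgeR adjusted p = 0.390) and −0.078 ± 0.034 for Sh3glb1 (edgeR adjusted p = 0.335). The cohort difference of Sh3glb2 is small beside its genotype difference in either cohort.

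Sh3glb2 lies on chromosome 3, and the nearest tested genes on both sides were examined for the same contrast. Of the 10 on each side, 0 of 20 were called for genotype by edgeR, DESeq2 or limma-voom, beside 8.03% of all genes, and 1 had an unadjusted p under 0.05. Their median log2 fold change was −0.023. On one side, Dolk (dolichol kinase) stood at −0.033 ± 0.032, Phyhd1 at 0.055 ± 0.048 and Lrrc8a, a subunit of volume-regulated anion channels, at 0.035 ± 0.027. On the other, Miga2 (mitoguardin 2) stood at −0.029 ± 0.021, Dolpp1 (a dolichyl pyrophosphate phosphatase) at 0.0039 ± 0.048 and Crat (carnitine acetyltransferase) at −0.043 ± 0.022. The adjacent Miga2 had 132 ± 5.37 CPM in wildtype and 129 ± 4.09 CPM in alzheimer, so the shift of Sh3glb2 was not seen in the next tested gene on either side. Nup188, which the reference places between Dolk and Sh3glb2, was not analysed here, so the gene directly beside Sh3glb2 on that side was not read.

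The 18 neighbours with at least 5 CPM lay between −0.12 and 0.055. The lowest was Ntmt1, an N-terminal methyltransferase (−0.12 ± 0.046, edgeR adjusted p = 0.103), which was called without replicate 8, a male alzheimer library on chow (−0.15, adjusted p = 0.0128). Prrx2, at 0.171 CPM in wildtype, had the highest fitted value, 0.43 ± 0.60, and it is close to the detection limit. For the other members, 1 of 20 neighbours of Sh3glb1 was called (Hs2st1, 0.087 ± 0.021) and 0 of 17 of Sh3gl1, where 1 had an unadjusted p under 0.05 and DESeq2 and limma-voom called 0. Sh3gl2 had 3 of 20, all higher: Mpdz (0.13 ± 0.028), Zdhhc21 (0.16 ± 0.046) and Slc24a2 (0.10 ± 0.033), the last of which lost its call without 1 library in 21 of 30 cases. Without replicate 8 the count was 5. Among the neighbours of Sh3gl3, Mex3b (0.21 ± 0.052) and Il16 (0.11 ± 0.029, lost without replicate 18 at an adjusted p of 0.0577) were called higher.

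**Figure D4:**
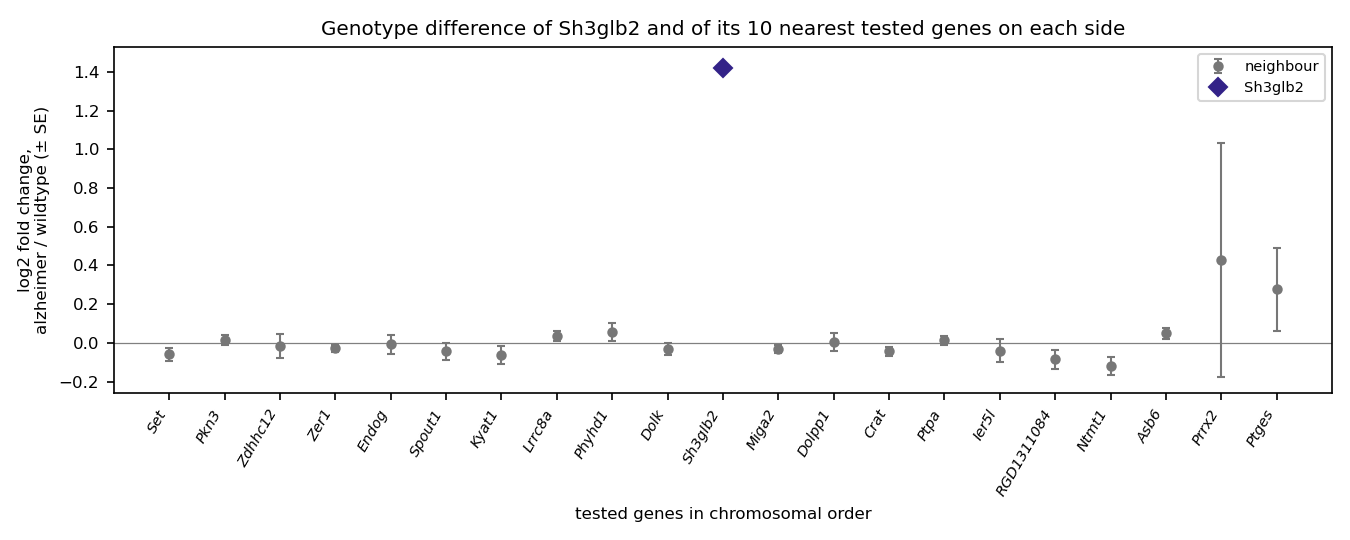
Log2 fold change of alzheimer over wildtype ± SE (y axis) for Sh3glb2 (diamond) and the 10 nearest tested genes on each side, in chromosomal order in GRCr8 with no distances drawn (x axis). Sh3glb2 stands at 1.42, and its neighbours with at least 5 CPM lie between −0.12 and 0.055.

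App served as a check on the labels, with Prnp read beside it because of the promoter. App, the amyloid precursor protein gene, was at 1672 ± 52.7 CPM in wildtype and 3294 ± 76.3 CPM in alzheimer, without overlap. Prnp, the prion protein gene, was at 1286 ± 48.6 and 1449 ± 44.2 CPM, without overlap. Human and rat reads are not separated in these counts, and the part that transgene reads have in any of these rows was not tested. All libraries matched their labelled genotype by App. As a ratio of means Sh3glb2 rose by more than App did (2.67 against 1.97), while in CPM App rose by more (1622 against 196 CPM). Per 100 CPM of App there were 7.04 ± 0.459 CPM of Sh3glb2 in wildtype and 9.54 ± 0.364 in alzheimer, a description of 2 rows in the same libraries.

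Within a genotype, no relation of Sh3glb2 to App was detected. Over the 15 alzheimer libraries Pearson's r between their log2 levels was 0.11 (permutation p = 0.692) and Spearman's rho 0.064 (permutation p = 0.824), and r was −0.35 without the 2 libraries farthest from the median of App. By cohort, r was −0.020 in cohort 1 (n = 7) and 0.63 in cohort 2 (n = 8), and the difference between cohorts was not tested. Over the 15 wildtype libraries r was 0.046 (permutation p = 0.871) and rho 0.12 (permutation p = 0.677), and r was 0.27 without the 2 farthest libraries, −0.026 in cohort 1 and 0.37 in cohort 2. In all, 14 relations were computed, among them those of Sh3glb2 with App, Prnp and the 4 other endophilins in each genotype, and 0 had an adjusted p under 0.05.

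With Sh3gl2 the wildtype r was −0.44 (permutation p = 0.0997, adjusted p = 0.698) and rho −0.35 (permutation p = 0.202), and r without the 2 libraries farthest from the median of Sh3gl2 was −0.16. It was −0.80 in cohort 1 and −0.28 in cohort 2. With group and cohort removed from both genes, r was −0.64 (permutation p = 0.00901, adjusted p = 0.126 over the 14 relations), which also fails the correction. Values left after that removal are not independent of one another. The permutation did not allow for this, so its p may be too small. The wildtype library lowest in Sh3glb2, replicate 7, was the wildtype library highest in Sh3gl2.

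Genes whose levels ran most alike were found by the smaller of the 2 Pearson correlations of log2 levels, over the 15 wildtype and over the 15 alzheimer libraries. They are the highest of all tested genes by that measure, share the libraries' depth and are given with no p. For Sh3glb2 they were Ndufs7, a subunit of respiratory complex I (r of 0.77 in wildtype and 0.86 in alzheimer), Dgat1, an enzyme of triglyceride synthesis (0.75 and 0.77), and Uqcrq, a subunit of respiratory complex III (0.74 and 0.82). Ube2g2, a ubiquitin-conjugating enzyme (0.71 and 0.83), and Syvn1, a ubiquitin ligase of the endoplasmic reticulum (0.71 and 0.70), completed the 5. None of these shared the genotype shift of Sh3glb2: their log2 fold changes ran from −0.13 ± 0.027 for Uqcrq, which was called lower (edgeR adjusted p = 0.0022), to 0.042 ± 0.023 for Syvn1.

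The gene most like Sh3gl2 was Snap91, which encodes the clathrin adaptor AP180 (r of 0.77 in wildtype and 0.77 in alzheimer), followed by Cdk14 (0.77 and 0.75) and Palmd (0.78 and 0.74). Snap91 differed between genotypes by 0.075 ± 0.026 (edgeR adjusted p = 0.0680). For Sh3glb1 the 3 genes were Pcsk6, a proprotein convertase (0.83 and 0.72), Pld1, a phospholipase (0.76 and 0.72), and Depdc7 (0.78 and 0.71). For Sh3gl1 they included Ablim3 (0.67 and 0.65) and Speg (0.73 and 0.65), and for Sh3gl3 Mettl9 (0.73 and 0.70), the ribosomal protein gene Rps24 (0.68 and 0.66) and Me2, mitochondrial malic enzyme (0.65 and 0.68).

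The machinery of clathrin-mediated endocytosis, in which class A endophilins act, contributed 34 tested genes of 36 listed. Of these, 5 were called for genotype, all of them higher, where 4.14% of all genes were called higher and 3.89% lower. The median log2 fold change of the list was 0.031, against 0.0020 for all tested genes. Synj1, the synaptojanin phosphatase that endophilin recruits to strip the coat, rose from 396 ± 27.2 to 434 ± 17.1 CPM (0.13 ± 0.026, edgeR adjusted p = 0.0013). Dnajc6, auxilin, which brings Hsc70 to the clathrin coat, rose from 393 ± 18.9 to 423 ± 20.9 CPM (0.10 ± 0.024, adjusted p = 0.0066). Amph, the amphiphysin that also bears a BAR domain, rose from 141 ± 5.65 to 151 ± 5.83 CPM (0.098 ± 0.021, adjusted p = 0.0024).

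Cltc, the clathrin heavy chain, was at 806 ± 32.0 and 844 ± 27.9 CPM (0.065 ± 0.019, adjusted p = 0.0278), and Fcho1, an early organiser of the coated pit, at 70.0 ± 6.61 and 78.0 ± 12.02 CPM (0.15 ± 0.046, adjusted p = 0.0435). These last calls were less stable: leaving out 1 library ended that of Cltc in 11 of 30 cases and that of Fcho1 in 20 of 30. Without 1 library the list held 3 to 6 calls, the 3 being reached without replicate 4, 17, 22, 25 or 26, and in cohort 1 alone it held 0. The 5 differences, from 0.065 to 0.15 on the log2 scale, were close in size to the 0.095 of Sh3gl2 and far below the 1.42 of Sh3glb2.

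The autophagy genes, among them partners of endophilin B1, gave 31 tested genes of 32 listed, with 1 higher and 3 lower and a median of −0.012, beside 4.14% of all genes called higher and 3.89% called lower. A single higher call among 31 is near that share. Gabarap fell from 173 ± 6.17 to 162 ± 4.89 CPM (−0.089 ± 0.020, edgeR adjusted p = 0.0031) and Map1lc3a from 162 ± 10.6 to 150 ± 6.97 CPM (−0.11 ± 0.029, adjusted p = 0.0164). Both encode ubiquitin-like proteins that are attached to the autophagosome membrane. Wipi1, which binds phosphoinositide on the forming autophagosome, fell from 49.5 ± 2.65 to 45.5 ± 3.31 CPM (−0.12 ± 0.031, adjusted p = 0.0132). Ambra1, a regulator of the Beclin 1 complex, was higher by 0.069 ± 0.022 (adjusted p = 0.0486), a call that was lost in 34 of 41 alternative analyses. Without the 3 libraries highest in choroid plexus markers, chosen after seeing the data, 2 members stayed called, both lower, and Map1lc3a was not among them (−0.090, adjusted p = 0.0615).

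The other genes with BAR-type domains gave 52 tested of 61 listed, with 3 higher, 1 lower and a median of 0.0079. These 4 of 52 are close to the share of all genes called for genotype, 8.03%. Amph and Fcho1, also in the endocytosis list, were joined by Arhgap10, a GTPase-activating protein (0.15 ± 0.048, edgeR adjusted p = 0.0496). Snx5, a sorting nexin of retrograde transport, fell from 96.0 ± 4.34 to 90.3 ± 5.69 CPM (−0.094 ± 0.027, adjusted p = 0.0224). Leaving out 1 library ended the call of Arhgap10 in 19 of 30 cases, and without the 3 libraries highest in choroid plexus markers 1 gene of the list was called. The widest difference among the 52 was −0.23 for Pstpip1, at 1.94 CPM, which was not called, so no other BAR-domain gene came near the value of Sh3glb2.

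**Figure D5:**
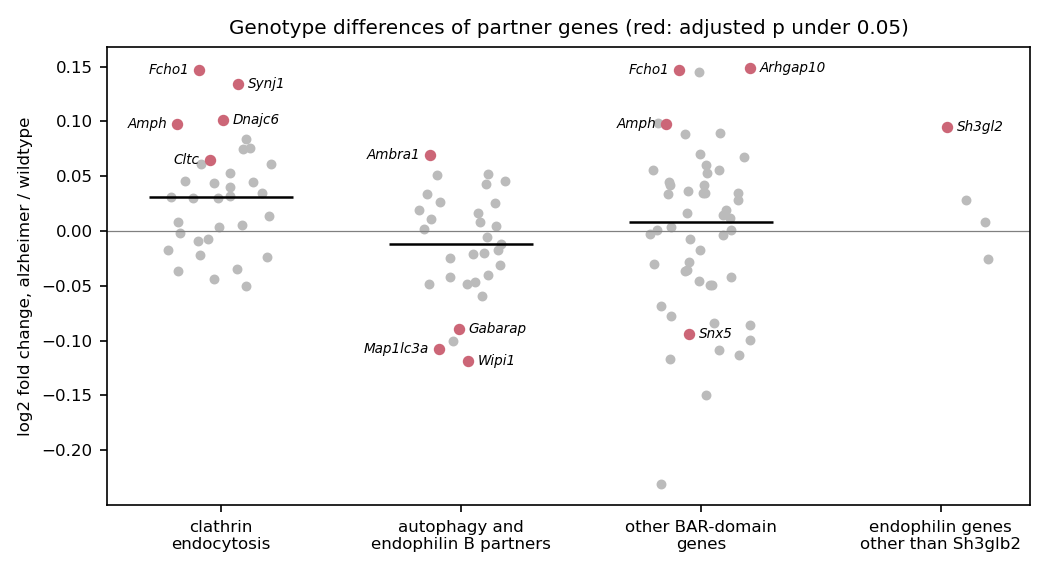
Log2 fold change of alzheimer over wildtype (y axis) for each tested gene of the endocytosis, autophagy and BAR-domain lists and for the 4 endophilins other than Sh3glb2 (x axis, points spread sideways for legibility), with called genes in red and list medians of 0.031, −0.012 and 0.0079 as black lines. All called genes lie between −0.12 and 0.15, whereas Sh3glb2 at 1.42 is off this scale and not drawn.

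Markers of the cell types in the tissue were read beside these results. Of all tested genes, 4.14% were called higher for genotype and 3.89% lower. The summed level of 11 hippocampal neuron markers was 8708 to 9471 CPM in wildtype and 8577 to 9579 CPM in alzheimer. These ranges overlapped, and 1 marker was called higher (Neurod2) and 1 lower (Wfs1). No other brain region was compared. Microglia markers had 4 of 8 called lower (among them C1qa, Itgam and Aif1), with sums of 378 to 484 and 355 to 432 CPM. The microglia markers Cx3cr1 (−0.058 ± 0.041), Csf1r (−0.037 ± 0.033), P2ry12 (0.038 ± 0.054) and Tmem119 (0.047 ± 0.059) were not called. Astrocyte markers had 1 of 8 called higher (Gfap) and 3 lower, endothelial markers 2 of 6 lower and oligodendrocyte markers 1 of 8 lower (Mbp). Sums of the other 3 overlapped as well, at 4897 to 5919 and 5079 to 5946 CPM for astrocytes, 223 to 328 and 221 to 290 CPM for endothelium and 8310 to 14812 and 8236 to 13474 CPM for oligodendrocytes. Choroid plexus markers, from tissue that borders the hippocampus, were not called (6 tested, edgeR adjusted p of at least 0.664), with sums of 3.13 to 37.5 and 3.31 to 63.4 CPM and with Otx2 at a median count of 0. The part of these shifts in the difference of Sh3glb2, or in the smaller differences of Sh3gl2 and the partner genes, was not tested. Without the 3 libraries highest in choroid plexus markers the log2 fold change of Sh3glb2 was 1.42 ± 0.027.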

How the data were processed

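The authors deposited raw counts per gene symbol for 30 libraries, whole numbers with 1 column per library and 0 columns without a sample. Per the labels' protocols, RNA came from a column kit for fatty tissue, polyA selection and the NEB Ultra II preparation. Per the submitters' processing notes, the tools were cutadapt, with no version named, and the aligner STAR 2.7.0a. Which counting tool, strand setting, build and annotation were used is not given in the sources used here.

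The count model was edgeR 4.0.16 under R 4.3.3. Genes were kept by filterByExpr (minimum count 10, minimum total 15), library sizes were scaled by TMM, and 1 coefficient per sex, genotype and diet group plus cohort was fitted over all 30 libraries. The quasi-likelihood F test was two-sided, with Benjamini-Hochberg adjustment over 12547 genes and a threshold of 0.05. Standard errors are the size of the log2 fold change over the root of F. The common biological coefficient of variation was 6.27%, and library totals ran from 13.9 to 31.4 M. The script was tested on simulated data. DESeq2 1.42.0, limma 3.58.1 (voom), 2 surrogate variables from sva 3.50.0, other filters and scalings, single cohorts and leaving out each library were alternatives, and leaving out the 3 libraries highest in choroid plexus markers was added after seeing the data.

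Permutation tests of correlations used 100000 resamples, two-sided. Neighbours are the 10 nearest tested genes on each side in RefSeq's GRCr8 order, to which 12405 of 12547 tested genes were matched. Start-site sequences are RefSeq's for GRCr8, and all 5 members matched. The text names all members, list members called for genotype (up to 5 per direction and list), the 3 nearest neighbours on each side, called neighbours, App and Prnp, and the genes most alike (5 for Sh3glb2, 3 for each other member). Some genes under this rule are not reported here. Marker genes, Nup188, Ntmt1, Prrx2 and Pstpip1 were named after their values were seen. The members and lists were chosen with earlier results of these data known.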

Additional observations from a re-analysis of the deposited data

Results flagged for a closer look

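One value stood apart from the rest of its group. For Sh3gl3, female_wildtype_chow replicate 15 was the highest library of its group at 70.4 CPM, while the other 3 lay between 60.9 and 61.4 CPM. The gap was 0.946 of the group's range, above Dixon's 95% critical value for 4 samples. The test was applied to 30 groups of the 5 members and chance alone flags about 1 in 20, so 1 flag is within that rate. The same level occurs in other groups, since alzheimer libraries of Sh3gl3 reach 72.4 CPM.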

How the results depend on the processing

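No paired analysis was possible because the replicate numbers are running numbers of the libraries and no 2 groups share one. Of 2445 alternative values for 60 results of the members, 2440 kept their side of the threshold or, where there was no test, stayed within the spread, with some uncalled estimates near 0 changing sign. Without a test, the genotype difference of Sh3glb2 was 1.39 to 1.45 over its 41 alternatives. In males on chow it was 1.53 in cohort 1 alone and 1.33 in cohort 2 alone, with 2 libraries per group in each. The call of Sh3gl2 (0.095) was lost with 2 surrogate variables (0.076), in cohort 1 alone (0.094) and in cohort 2 alone (0.086). The sign of the uncalled genotype estimate changed in 8 alternatives for Sh3gl1 and 1 for Sh3glb1. Counts of calls fell most in cohort 1 alone, which has fewer libraries: 72 genes of all those tested, against 1007, and 573 in cohort 2 alone. In cohort 1 alone 0 genes were called by edgeR in the endocytosis, autophagy and BAR-domain lists and among the neighbours of Sh3glb1, Sh3gl2 and Sh3gl3, and 1 among those of Sh3gl1. In cohort 2 alone the autophagy list held 2 calls and the neighbours of Sh3glb1 and Sh3gl3 held 0. With 2 surrogate variables the BAR-domain list and the neighbours of Sh3gl2 held 1 each. Without the 3 libraries highest in choroid plexus markers the autophagy list held 2 and the BAR-domain list 1. Leaving out 1 library gave 3 to 6 calls in the endocytosis list and 2 to 5 in the BAR-domain list. Among neighbours it gave 0 to 1 for Sh3glb2 (1 without replicate 8), 0 to 1 for Sh3gl1 (1 without replicate 22) and 2 to 5 for Sh3gl2 (5 without replicate 8). The cause of these changes was not tested. Females on the western diet have 3 libraries per genotype, 1 of them from cohort 1, so their estimates have the widest errors.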
